A study of Mus musculus with 8 samples.

Results

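The Cfap genes are the mouse genes named after cilia and flagella associated proteins, and they were taken here by name, as the genes whose symbol begins with Cfap and a number. The annotations used matched 34 of them among 56748 gene identifiers, 31 found by their GENCODE M21 symbol and 3 (Cfap410, Cfap20dc and Cfap47) by their RefSeq symbol through an older name. Another 13 listed Cfap names had no match by symbol and were not analysed here. All 34 passed the filter on low counts and are described here. The study sequenced RNA of adult mouse testis in 4 libraries labelled Ak9-/- (Ak9 knockout) and 4 labelled WT (wild type), to ask what loss of Ak9, an adenylate kinase gene tied to sperm motility, does to gene expression. The sources used here give neither the strain, the age beyond adult, the design of the knockout allele nor whether the libraries came from separate animals, so each p-value covers only library-to-library spread, part of which may be technical.

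A motile flagellum is built on an axoneme, a ring of doublet microtubules around a central pair, driven by dynein arms and held in step by radial spokes. Many parts of this structure were first numbered as flagella associated proteins in the green alga Chlamydomonas, and the Cfap genes are their relatives in mammals. The name marks a place, not a sequence family, so the members include spoke proteins, central pair proteins, proteins inside the doublets, dynein regulators and dynein assembly factors. In testis these genes are read mostly in the meiotic and haploid germ cells that build the sperm tail, and loss of several of them leaves short, bent or immotile sperm tails in mouse or human.

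Total counts ran from 18062780 to 24415587, so the upper limit behind a count of 0 lay between 0.123 and 0.166 CPM (a count scaled to library size, with 3 counts as the 95% limit for counting error only). Every Cfap gene had at least 40 counts in every library. The Ak9 transcript measured 69.3, 116, 101 and 40.6 CPM in labelled knockouts 1 to 4, against 108, 115, 122 and 107 CPM in wild types 1 to 4. Labelled knockouts 1, 3 and 4 lay below every wild type, and labelled knockout 2 lay within their range. The gene missed the threshold with a log2 fold change of -0.47 (SE 0.25, edgeR adjusted p = 1.00), and the libraries are therefore called labelled knockout throughout. Labelled knockout 3 stood apart: its elongating spermatid score, the mean log2 CPM of 16 marker genes minus the wild-type mean, was -0.82, while labelled knockouts 1, 2 and 4 had 0.37, 0.10 and 0.43 and wild types 1 to 4 had 0.13, -0.15, -0.02 and 0.04. The round spermatid score was -0.64 in labelled knockout 3, with 0.37, 0.24 and 0.25 in labelled knockouts 1, 2 and 4 and -0.15 to 0.07 in wild types. The summed level of 10 epididymis markers reached 245 CPM in labelled knockout 3 and 34.2 CPM in the fourth. It was 6.29 and 6.59 CPM in the first and second, against 7.29 to 9.70 CPM in wild types. In labelled knockout 3 it was carried mainly by Crisp1 at 208 CPM and Adam7 at 29.4 CPM, with Rnase9 at 2.44 CPM. Rnase10 and Crisp4 were not raised there, at 3.49 and 1.16 CPM, against 4.96 to 7.03 and 1.15 to 1.95 CPM in wild types. Lcn5, Lcn8, Lcn9, Gpx5 and Cst11 had at most 0.498 CPM there. The spermatocyte score, from 12 genes, was 0.03 to 0.12 in labelled knockouts and -0.10 to 0.10 in wild types, and the Sertoli cell score was 0.55 in labelled knockout 3 and -0.44 to 0.09 in the other labelled knockouts, against -0.08 to 0.10 in wild types. Labelled knockout 4 also stood apart in somatic markers, and the Leydig cell score was -0.31, -0.54, -0.09 and -1.19 in labelled knockouts 1 to 4, against -0.16 to 0.14 in wild types. The spermatogonia score was -0.48, -0.07, 0.18 and -0.42 in labelled knockouts 1 to 4, against -0.16 to 0.10 in wild types. In bulk tissue, fewer cells of a type and less RNA per cell cannot be told apart.

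Cfap genes are read by multiciliated epithelia as well as by germ cells, so markers of such cells were set beside them. Of 12 listed markers, Deup1, Foxj1 and Cdhr4 carried nearly all of the summed level of 280 to 448 CPM in labelled knockouts and 353 to 391 CPM in wild types. Foxj1 is also read in male germ cells, so this sum does not measure multiciliated cells alone. Deup1 had 305, 331, 191 and 323 CPM in labelled knockouts 1 to 4, against 256 to 282 CPM in wild types. Which cells the sum came from was not tested. Sntn, Scgb1a1 and Mcidas, which mark multiciliated or airway epithelium, were between 0 and 0.158 CPM in labelled knockouts and between 0 and 0.419 CPM in wild types, at or near the limit that a count of 0 allows except for Mcidas in wild types 2 and 4, at 0.419 and 0.201 CPM. Of the other markers, Ccno had 2.94 to 4.26 CPM in labelled knockouts, against 5.68 to 6.08 CPM in wild types. Its groups did not overlap, as was so for 2.3% of all genes tested in either direction. Ccno did not pass the adjusted threshold, where all genes called were higher in labelled knockouts. Trp73, Bpifb1, Gmnc, Cdhr3 and Tmem212 stayed between 0.0839 and 1.83 CPM in labelled knockouts and between 0.0410 and 1.84 CPM in wild types.

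Ciliary genes are known to be switched on by RFX transcription factors, which bind the X-box, a pair of short inverted arms. The letters of 1 arm, GTTGCC on either strand, were in the promoter window (250 bases before to 50 after the RefSeq start, GRCm38.p6) of 11 of the 27 Cfap genes that have a window, which is 40.7%, while 14.1% of 27025 genes hold them. Both arms together, GTTNCC followed after 0 to 3 bases by GGNAAC, were in a window of 2 of these 27 genes, 7.41%, and in 0.936% of all genes. These matches describe letters in a window, not sites of binding. The paired letters overlap the single arm wherever both are found. The sequences below are shown because they are the 3 paired matches and examples of matched arms from genes described later, whose windows may hold further arms outside the stretch shown. They read 5′ to 3′ along the gene's strand, with the matched letters in capitals, and all lie before the start.
Cfap298 upper pair (chr16:90935004-90935057, minus strand): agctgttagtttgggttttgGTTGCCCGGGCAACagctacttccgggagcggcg
Cfap298 lower pair (chr16:90934884-90934938, minus strand): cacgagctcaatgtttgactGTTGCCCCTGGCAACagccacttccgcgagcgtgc
Cfap20dc pair (chr14:8666359-8666412, minus strand): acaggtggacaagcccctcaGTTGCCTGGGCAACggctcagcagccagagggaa
Cfap20 arm (chr8:95434938-95434983, minus strand): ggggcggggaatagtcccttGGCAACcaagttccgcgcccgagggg
Cfap58 arm (chr19:47937633-47937678, plus strand): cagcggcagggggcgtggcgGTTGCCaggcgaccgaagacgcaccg
Cfap74 arm (chr4:155409183-155409228, plus strand): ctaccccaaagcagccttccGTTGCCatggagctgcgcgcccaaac

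Levels of the Cfap genes spanned a wide range in wild-type testis. To compare genes, CPM scaled by TMM (a factor that equalises libraries on the bulk of their genes) were divided by the kilobases of annotated exon in GENCODE M21. On this scale the wild-type means ran from 0.648 for Cfap97d2 to 287 for Cfap206, a 443-fold range with a median of 34.5.

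Cfap206, which docks a radial spoke to the doublet in the ciliate Tetrahymena and is needed for sperm motility in mouse, was the highest. It averaged 313 ± 75.4 CPM per kb in labelled knockouts and 287 ± 13.2 in wild types (SD, n = 4 each). Its CPM were 868, 832, 500 and 908 in labelled knockouts 1 to 4, against 701, 684, 760 and 706 in wild types 1 to 4, so labelled knockout 3 lay below every wild type and the other 3 labelled knockouts above them. Cfap36, whose protein binds the ciliary GTPase ARL3, was next with 178 ± 32.4 CPM per kb in labelled knockouts and 169 ± 3.63 in wild types. Cfap97d1, needed for a stable sperm axoneme in mouse, followed with 108 ± 37.6 CPM per kb in labelled knockouts and 98.8 ± 6.36 in wild types. Cfap97 had 94.0 ± 14.6 CPM per kb in labelled knockouts and 86.8 ± 1.77 in wild types. Cfap126, also called Flattop, which lies inside the doublets, had 82.4 ± 24.5 CPM per kb in labelled knockouts and 71.3 ± 3.62 in wild types. The first 5 places were clear of each other in wild types, where no library of one gene reached the range of the next.

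Below these came a group whose order is not resolved. Cfap69, needed for the sperm tail in mouse and human, had 66.3 ± 17.8 CPM per kb in labelled knockouts and 58.2 ± 2.78 in wild types. Cfap70, a central pair protein in Chlamydomonas, had 57.2 ± 4.90 CPM per kb in labelled knockouts and 52.2 ± 3.88 in wild types. Cfap299 had 53.9 ± 13.3 in labelled knockouts and 51.8 ± 1.75 in wild types, and Cfap57 had 58.6 ± 7.74 in labelled knockouts and 51.6 ± 0.957 in wild types. The wild-type ranges of Cfap70, Cfap299 and Cfap57 overlapped. Cfap298, a dynein assembly factor, closed the first 10, with 88.6, 73.9, 63.0 and 92.4 CPM in labelled knockouts, against 73.2, 63.8, 69.2 and 76.6 CPM in wild types, which is 44.5 ± 3.45 CPM per kb in wild types. Over the whole order, the ranges of 28 of 33 neighbours overlapped in labelled knockouts and those of 20 of 33 in wild types. No gene moved by more than 3 places between the order in labelled knockouts and that in wild types.

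At the low end, Cfap97d2 had 4.19, 1.98, 4.69 and 2.68 CPM in labelled knockouts 1 to 4, against 3.10, 3.46, 3.88 and 2.00 CPM in wild types 1 to 4, with groups that overlapped fully. Cfap47, whose X-linked human relative is a cause of male infertility, had 18.6, 16.6, 11.4 and 22.4 CPM in labelled knockouts, against 15.8, 18.4, 19.2 and 19.8 CPM in wild types. RefSeq joins several older gene models under Cfap47 and only one of them, Gm7173, was used, so its level and place may cover part of the gene. Cfap61 was 28th of 34 per kb of exon, at 7.47 ± 1.47 CPM per kb in labelled knockouts and 5.44 ± 0.178 in wild types. The exon lengths are unions over all annotated transcripts, 798 to 14645 bases, and they lower genes with long untranslated or retained parts. With the longest coding length in place of exon length, a choice made after seeing the data, 7 of the first 10 genes stayed among the first 10, Cfap36 came first and Cfap206 second, Cfap20 moved from 21st to 7th and Cfap61 from 28th to 26th.

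**Figure D1:**
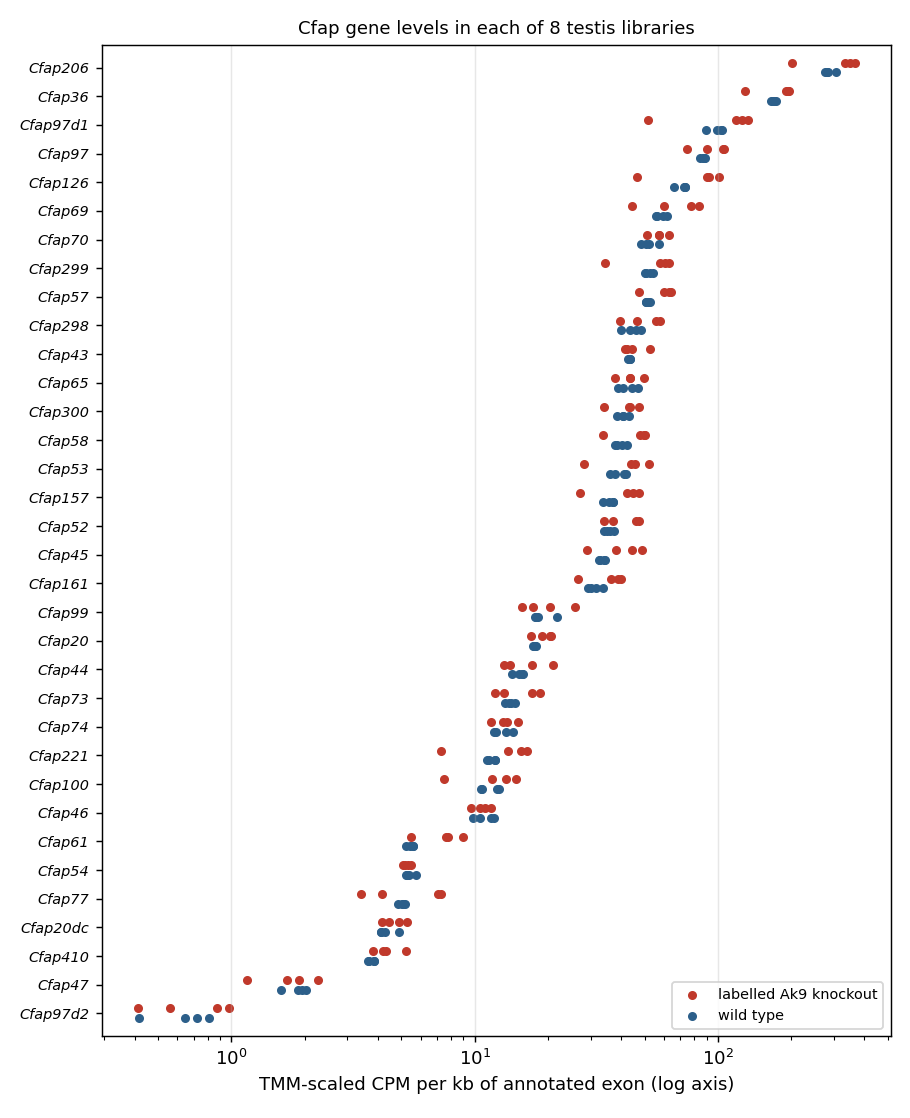
TMM-scaled CPM per kb of annotated exon on a log axis for the 34 Cfap genes, ordered by wild-type mean, with 1 point per library (labelled Ak9 knockout in red above, wild type in blue below). Wild-type points of a gene lie close together, and in genes such as Cfap206, Cfap97d1 and Cfap221 a single red point, labelled knockout 3, lies to the left of all others.

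No Cfap gene passed the threshold between labelled knockouts and wild types. With edgeR's quasi-likelihood test over 21805 genes and Benjamini-Hochberg adjustment at 0.05, 0 of 34 passed in either direction, where 0.0183% of all genes tested were called, all of them higher. DESeq2 and limma-voom also called 0 of 34. At an unadjusted edgeR p under 0.05, 1 of 34 was higher, Cfap61, and 0 were lower, beside 1.25% of all genes higher, 1.79% lower and 3.04% in either direction. No Cfap gene had groups that did not overlap, where 2.3% of all genes did and 0.981% did with the labelled knockouts higher.

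Most shifts nevertheless had the same sign, in genes many of which varied together by library. The mean of the Cfap genes, centred on wild type, was 0.25, 0.08, -0.22 and 0.29 in labelled knockouts 1 to 4 on the log2 scale. In wild types it was -0.04 to 0.04. A count of genes is therefore not a count of separate observations. The log2 fold change was above 0 for 31 of 34 Cfap genes, against 52.9% of all genes, with a median of 0.12, against 0.01 for all genes, and a range of -0.09 to 0.46. The shifts were small beside their errors, since the SE exceeded the size of the shift for 21 of the 34. The median was 0.06 without labelled knockout 1, 0.05 without labelled knockout 4 and 0.21 without labelled knockout 3, so its size moved with single libraries. The listed genes of other axoneme proteins (spokes, central pair, nexin links, dyneins, tektins and doublet proteins without a Cfap name) gave similar figures, with 45 of 49 above 0, a median of 0.10 and 0 past the threshold in either direction. Of these the smallest p belonged to Tekt3, a tektin of the doublet wall, which averaged 168 CPM in labelled knockouts and 141 CPM in wild types. Its log2 fold change was 0.25 (SE 0.16, edgeR adjusted p = 1.00).

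The labelled knockouts differed from each other in this. Labelled knockout 1 lay above all wild types for 26 of 34 Cfap genes, where 32.5% of all genes did, labelled knockout 2 for 17, where 26.3% did, and labelled knockout 4 for 27, where 34% did. Labelled knockout 3 lay below all wild types for 23 of 34, where 36.1% of all genes did, and above all wild types for 5, where 33.5% did. Labelled knockouts 1, 2 and 4 were all above every wild type for 14 of 34, where 9.42% of all genes were. Both spermatid scores given above were likewise above 0 in labelled knockouts 1, 2 and 4 and below 0 in labelled knockout 3, while the Leydig cell score was lowest in labelled knockouts 1, 2 and 4. The part of these cell type markers in the Cfap shift was not tested. The fits with a spermatid score given below cannot show it, because the group means of each score lie close together. The median SD of log2 CPM over the Cfap genes was 0.29 in labelled knockouts and 0.07 in wild types, and the median ratio of these SDs was 4.64, against 2.19 over all genes. Without labelled knockout 3 the ratio was 1.35 for Cfap genes and 1.48 for all genes.

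**Figure D2:**
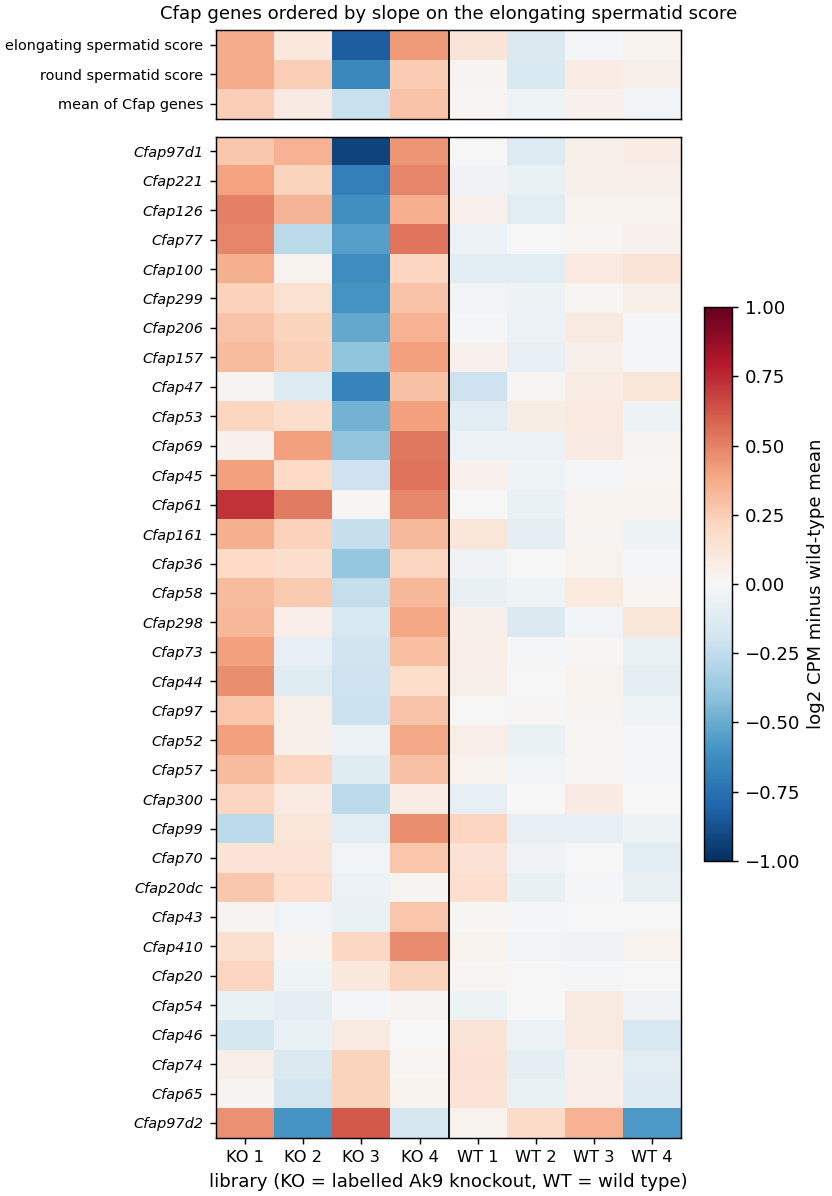
Log2 CPM minus the wild-type mean for the 34 Cfap genes (lower block, 1 row per gene) in 4 labelled Ak9 knockouts (KO, left) and 4 wild types (WT, right), with the spermatid scores and the mean of the Cfap genes above on the same colour scale. Genes are ordered by their slope on the elongating spermatid score, from 1.06 for Cfap97d1 at the top to -0.50 for Cfap97d2 at the bottom. The blue column of labelled knockout 3 fades down the rows, which follows largely from this ordering, since the slopes lean on that library.

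Among proteins of the radial spoke base, Cfap61 had the largest shift of the 34 genes. It encodes a subunit of the calmodulin- and spoke-associated complex, which anchors spokes to the doublet, and mice without it make malformed sperm tails. Its counts correspond to 95.5, 82.8, 58.1 and 80.6 CPM in labelled knockouts 1 to 4, against 57.4, 55.1, 59.1 and 59.2 CPM in wild types 1 to 4. Labelled knockouts 1, 2 and 4 lay above every wild type, and labelled knockout 3 lay inside the wild-type range, so the groups overlapped. Cfap61 averaged 79.2 ± 15.6 CPM in labelled knockouts and 57.7 ± 1.89 CPM in wild types (SD, n = 4 each). The log2 fold change was 0.46 with an SE of 0.14 (edgeR, unadjusted p = 0.00643, adjusted p = 1.00). A two-sided exact permutation test of the CPM gave p = 0.0857, where the smallest possible is 0.0286.

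Cfap61 passed in 1 of the alternatives tried, the fit without labelled knockout 3 (log2 fold change 0.57, SE 0.08, edgeR adjusted p = 0.0349), where 0.158% of all genes passed. Over the alternatives its adjusted p ran from 0.0349 to 1.00. With the elongating spermatid score in the model, its log2 fold change was 0.43 (SE 0.07, edgeR adjusted p = 0.0528). With the round spermatid score in its place the log2 fold change was 0.40 (SE 0.06, adjusted p = 0.0617). Both scores come from the same libraries. The low score of labelled knockout 3 offsets the scores above 0 in the other labelled knockouts, so the group means of each score lie close together. These fits therefore cannot show how much of the shift goes with spermatid content, which was not tested.

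Set against the other Cfap genes of its own library, Cfap61 was higher in each labelled knockout. The log2 ratio of Cfap61 to the mean of the others, centred on wild type, was 0.49, 0.45, 0.24 and 0.20 in labelled knockouts 1 to 4, against -0.03, -0.03, -0.01 and 0.06 in wild types 1 to 4. The groups did not overlap on this measure for Cfap61 and for no other of the 34, while 0.33% of all genes were higher and 2.27% lower without overlap on the same measure. This measure was chosen after the values of Cfap61 were seen, so its separation is given as a description. Cfap61 shares 57 of 10606 exon bases with Crnkl1 on the other strand, 0.537% of its length.

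**Figure D3:**
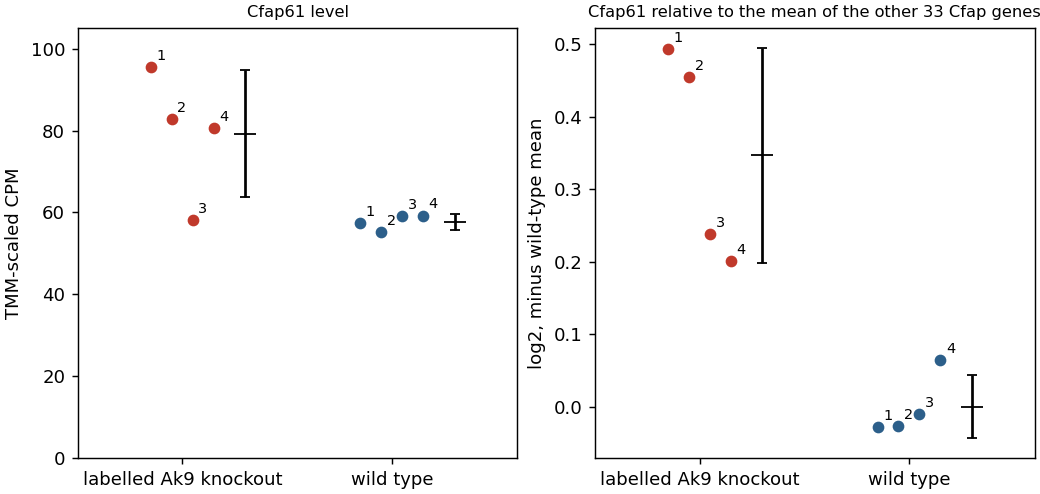
Cfap61 in 4 labelled Ak9 knockouts (red, numbered) and 4 wild types (blue, numbered), as TMM-scaled CPM (left) and as the log2 ratio to the mean of the other Cfap genes, centred on wild type (right), with mean and SD beside the points. On the left labelled knockout 3, at 58.1 CPM, lies among the wild types, and on the right all 4 labelled knockouts, from 0.20 to 0.49, lie above the wild types.

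The other spoke gene, Cfap206, had a log2 fold change of 0.12 (SE 0.17), and it did not pass. Proteins inside the doublet microtubules made up 7 of the 34 genes, and all 7 had a log2 fold change above 0 (median 0.19) with 0 past the threshold. Cfap45, a doublet protein that binds AMP and is found together with the adenylate kinase AK8 in motile cilia, had 253, 219, 165 and 278 CPM in labelled knockouts, against 196, 186, 188 and 194 CPM in wild types. Its shift was the second largest (log2 fold change 0.26, SE 0.15, edgeR adjusted p = 1.00), with labelled knockouts 1, 2 and 4 above and labelled knockout 3 below all wild types. Cfap52, its neighbour in the doublet, had 110, 85.6, 79.3 and 107 CPM in labelled knockouts, against 86.5, 78.8, 83.5 and 81.4 CPM in wild types, a log2 fold change of 0.21 (SE 0.12). Only labelled knockouts 1 and 4 of that gene lay above the wild types.

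Cfap126 had 179, 160, 82.3 and 163 CPM in labelled knockouts, against 130, 117, 129 and 130 CPM in wild types, a log2 fold change of 0.21 (SE 0.20). Cfap161 had a log2 fold change of 0.19 (SE 0.13), Cfap20 0.13 (SE 0.09), Cfap77 0.12 (SE 0.23) and Cfap53 0.11 (SE 0.16). Cfap20, at the seam of the doublet, was unlike the other doublet genes in labelled knockout 3, where its 84.5 CPM lay above the wild-type range of 77.5 to 79.7 CPM.

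Genes assigned to the central apparatus, the pair of inner microtubules and its projections, split among themselves. Of 9, 6 had a log2 fold change above 0 and 3 below, with a median of 0.04, and the 3 Cfap genes below 0 were all in this group. Cfap69 and Cfap221 came to 0.19 (SE 0.18) and 0.17 (SE 0.21) on the log2 scale, and Cfap70 and Cfap99 to 0.13 (SE 0.11) and 0.07 (SE 0.15). The log2 fold changes of Cfap47, Cfap46 and Cfap54 were -0.09 (SE 0.18), -0.04 (SE 0.10) and -0.04 (SE 0.09), and those of Cfap74 and Cfap65 were 0.04 (SE 0.11) and 0.03 (SE 0.12).

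In Chlamydomonas the relatives of Cfap46, Cfap54, Cfap74 and Cfap221 sit together in 1 projection of the central pair, and here their transcripts differed in how they varied. Cfap54 had 75.4, 74.3, 77.8 and 80.3 CPM in labelled knockouts 1 to 4, against 76.3, 78.6, 84.3 and 76.9 CPM in wild types 1 to 4, the steadiest of the 34 across the labelled knockouts. Cfap46 had 89.6, 96.7, 108 and 102 CPM in labelled knockouts, against 111, 97.2, 108 and 90.9 CPM in wild types. Cfap74 had 135, 117, 150 and 131 CPM in labelled knockouts, against 143, 122, 134 and 120 CPM in wild types, and labelled knockout 3 was its highest library. Cfap221 had 45.0, 39.8, 21.2 and 48.0 CPM in labelled knockouts, against 33.3, 32.6, 35.2 and 35.3 CPM in wild types, so labelled knockout 3 was its lowest library and the other 3 were above all wild types.

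Regulators of the inner dynein arms had log2 fold changes above 0 in 5 of 5 genes, with a median of 0.11 and 0 past the threshold. Cfap57, which places inner arm dyneins in Chlamydomonas, had 258, 241, 190 and 254 CPM in labelled knockouts, against 212, 204, 209 and 205 CPM in wild types, a log2 fold change of 0.19 (SE 0.11). Cfap43 and Cfap44, which tether an inner arm dynein and are mutated in men with malformed sperm tails, shifted by 0.06 (SE 0.11) and 0.11 (SE 0.14) on the log2 scale. Cfap73 and Cfap100, partners that regulate the same dynein in Chlamydomonas, had 0.13 (SE 0.15) and 0.04 (SE 0.18). Ddx54 lies opposite 8.47% of the exon bases of Cfap73 and averaged 1198 counts over the 8 libraries, beside 279 for Cfap73. The dynein assembly factors Cfap298 and Cfap300 had 0.17 (SE 0.13) and 0.04 (SE 0.11). Of the exon bases of Cfap298, 44.2% lie opposite Gm49727, which averaged 29.8 counts over the 8 libraries beside 1549 for Cfap298.

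The 9 remaining genes were all above 0, from 0.06 for Cfap299 (SE 0.17) to 0.23 for Cfap410 (SE 0.11), and 0 passed. Cfap410, a basal body protein, had 27.8, 25.3, 28.7 and 34.5 CPM in labelled knockouts, against 25.4, 24.3, 24.2 and 25.4 CPM in wild types, with labelled knockouts 1, 3 and 4 above every wild type. It was 1 of the 5 genes for which labelled knockout 3 was above all wild types, with Cfap20, Cfap65, Cfap74 and Cfap97d2. Cfap58 and Cfap157, needed for normal sperm tails in mouse, gave log2 shifts of 0.19 (SE 0.13) and 0.17 (SE 0.15). Cfap36, Cfap97, Cfap97d1, Cfap97d2 and Cfap20dc had log2 fold changes of 0.07 (SE 0.14), 0.11 (SE 0.13), 0.12 (SE 0.24), 0.12 (SE 0.30) and 0.10 (SE 0.13).

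**Figure D4:**
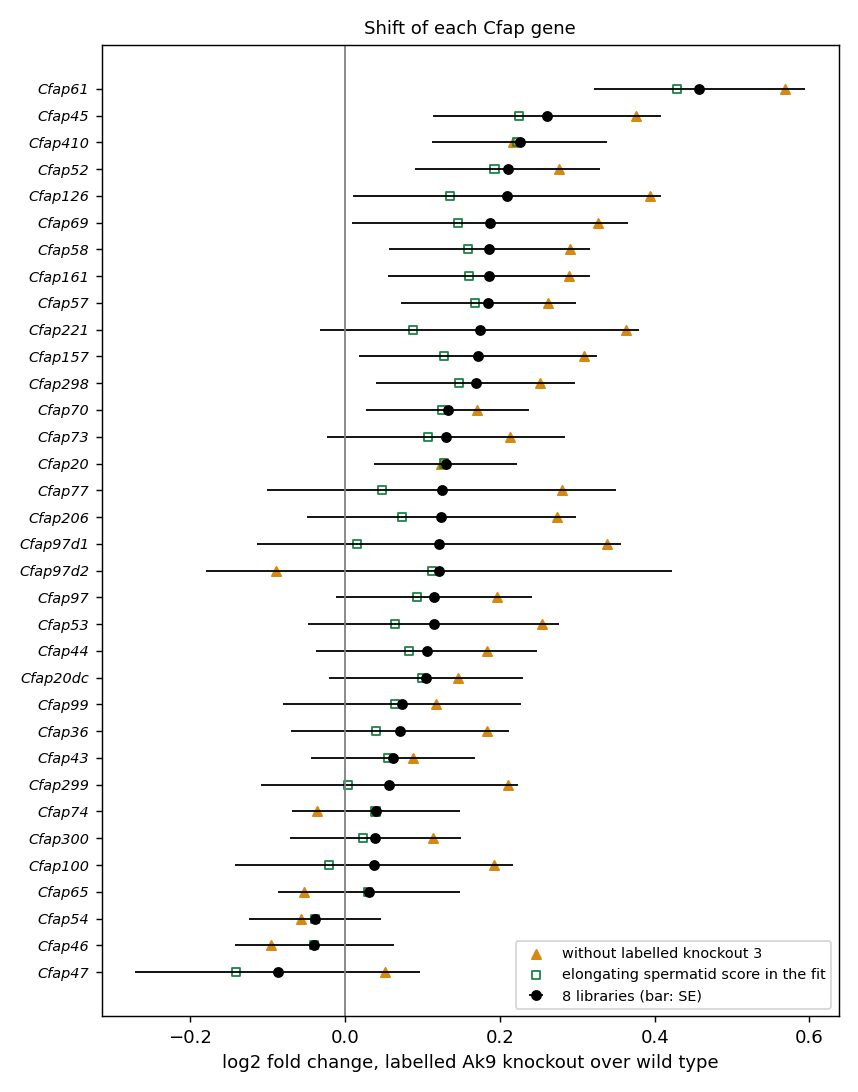
Log2 fold change (labelled Ak9 knockout over wild type) of the 34 Cfap genes, with the 8-library fit as black points and its SE as bars, the fit without labelled knockout 3 as orange triangles and the fit with the elongating spermatid score as green squares. Cfap61 stands at the top in all 3 fits, at 0.46, 0.57 and 0.43, and Cfap46 and Cfap54 lie below 0 in all 3.

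To relate the members to spermatid content, the log2 CPM of each gene was regressed on the elongating spermatid score over the 8 libraries. The slope is the log2 change of the gene per log2 unit of the score, and it leans on labelled knockout 3, which has by far the lowest score, so slopes without that library are given beside it. Of 34 Cfap genes, 29 had a slope above 0, 85.3%, where 49.4% of all genes did, and the median slope was 0.43, against -0.01 for all genes. Without labelled knockout 3 the medians were 0.62 for Cfap genes and -0.03 for all genes. Then 32 of 34 slopes were above 0, where 48.9% of all genes had such a slope. In those 7 libraries the score partly follows the group label, at 0.37, 0.10 and 0.43 in labelled knockouts against at most 0.13 in wild types. The regression has no group term, so these slopes also take up the shift between groups.

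The steepest genes moved nearly as much as the score. Cfap97d1 had 95.1, 100, 41.3 and 107 CPM in labelled knockouts 1 to 4, against 79.1, 71.6, 82.0 and 82.7 CPM in wild types 1 to 4. Its slope was 1.06 (SE 0.12), and 0.83 (SE 0.25) without labelled knockout 3. Its level in labelled knockout 3 was 0.93 below the wild-type mean on the log2 scale, and the score there was 0.82 below it. The slope was 0.91 (SE 0.09) for Cfap221, 0.86 (SE 0.11) for Cfap126, 0.79 (SE 0.20) for Cfap77, 0.71 (SE 0.12) for Cfap100 and 0.69 (SE 0.06) for Cfap299. Without labelled knockout 3 these slopes were 0.96 (SE 0.20), 0.96 (SE 0.25), 1.10 (SE 0.41), 0.61 (SE 0.25) and 0.56 (SE 0.13). Cfap77 had 18.5, 10.9, 8.98 and 19.1 CPM in labelled knockouts 1 to 4, against 12.7 to 13.5 CPM in wild types. Labelled knockout 2 thus lay below all wild types for Cfap77, although its score was 0.10.

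At the other end, 4 of the 6 lowest slopes belonged to central apparatus genes. They were -0.15 (SE 0.13) for Cfap65, -0.13 (SE 0.12) for Cfap74, -0.12 (SE 0.11) for Cfap46 and -0.01 (SE 0.06) for Cfap54. Without labelled knockout 3 they were 0.17 (SE 0.23), 0.20 (SE 0.22), -0.09 (SE 0.25) and -0.06 (SE 0.13). Cfap65, whose loss gives malformed sperm tails in mouse and human, had 340, 294, 390 and 341 CPM in labelled knockouts, against 366, 318, 348 and 305 CPM in wild types, with labelled knockout 3 the highest of the 8. Cfap20 had a slope of 0.08 (SE 0.11), and 0.49 (SE 0.11) without labelled knockout 3. Cfap97d2, the gene with the fewest counts, had -0.50 (SE 0.43), and 0.09 (SE 0.91) without labelled knockout 3. Cfap61 lay between, with a slope of 0.49 (SE 0.26) that was 1.24 (SE 0.42) without labelled knockout 3. Over the 8 libraries its SE was the largest after that of Cfap97d2.

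**Figure D5:**
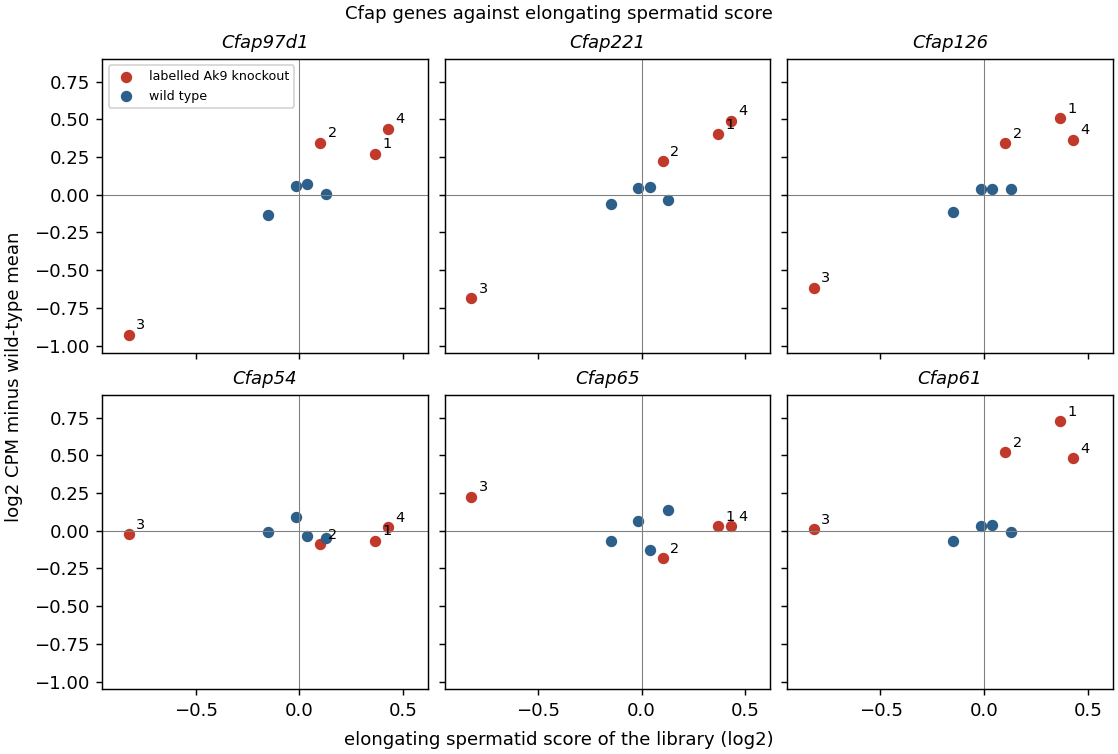
Log2 CPM minus the wild-type mean against the elongating spermatid score of the library for 6 Cfap genes, with labelled Ak9 knockouts in red (numbered) and wild types in blue. Cfap97d1, Cfap221 and Cfap126 are lowest in labelled knockout 3, Cfap54 stays near 0 in all libraries, Cfap65 is highest in labelled knockout 3, and Cfap61 is near the wild-type mean there and above it in labelled knockouts 1, 2 and 4.

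With the elongating spermatid score in the model, the log2 fold change was above 0 for 30 of 34 Cfap genes, and for 10224 of all 21805 genes. The median was 0.09 for Cfap genes and -0.01 for all genes. Labelled knockout 3, at -0.82, has by far the lowest score, so this fit leans on that library as the slopes do. That low score also offsets those of the other labelled knockouts, so the group means of the score lie close together. The fit therefore cannot show how much of the shift goes with spermatid content. At an unadjusted edgeR p under 0.05, 8 Cfap genes were higher and 0 lower, where 2.83% of all genes were higher. After adjustment 0 passed, where 0.142% of all genes did. Among the 34 Cfap genes, Cfap45 had the second smallest p in that fit (log2 fold change 0.22, SE 0.06, edgeR adjusted p = 0.304). The shifts of Cfap97d1 and Cfap299 in that fit were 0.02 (SE 0.09) and 0.00 (SE 0.06), against 0.12 and 0.06 without the score. With the round spermatid score in its place, 28 of 34 were above 0 and the median was 0.07. Without labelled knockout 3 and with no score in the model, 17 of 34 were higher at an unadjusted edgeR p under 0.05. Of all genes, 10% were higher at that limit. Of the 34, 1, Cfap61, passed after adjustment. In those 7 libraries the 3 labelled knockouts had elongating spermatid scores of 0.37, 0.10 and 0.43, against at most 0.13 in wild types.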

How the data were processed

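RNA was measured in 8 adult mouse testis libraries, 4 labelled Ak9 knockout and 4 wild type. Per the labels' protocols, TRIzol served for extraction, DNase treatment followed, and a TruSeq kit made the libraries. The deposited values are raw, unnormalized counts for each Ensembl gene. The tools named, per the submitters' processing notes, are Trimmomatic, STAR, featureCounts and DESeq2, with GRCm39 and mm39 as builds. The sources used here give no tool versions, annotation release or strand setting, so reads of overlapping genes on opposite strands may not be told apart. No column lacked a sample (0 unmapped columns).

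Symbols, exon and coding lengths and overlaps came from GENCODE M21 (GRCm38, not the authors' build, so used for names and lengths only), which matched 52073 of 56748 identifiers, and promoters from RefSeq (GRCm38.p6). Windows were found for 27 members, and 7 had none. Genes were filtered with filterByExpr (minimum count 10, total 15), leaving 21805, scaled by TMM and tested with edgeR's quasi-likelihood test without covariates (edgeR 4.0.16, limma 3.58.1, DESeq2 1.42.0, R 4.3.3), Benjamini-Hochberg adjusted at 0.05. CPM are TMM-scaled, except marker levels, which are per library total. Each SE was taken as the absolute shift over the square root of the F statistic. Scripts were tested on simulated counts. Genes named in full were Cfap61, the 10 highest in wild type per length, the 10 largest and 10 smallest shifts and the 6 steepest and 6 flattest slopes, 28 in all. Others are given because every member is accounted for. The members and lists were chosen with earlier results of these data known.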

Additional observations from a re-analysis of the deposited data

Results flagged for a closer look

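In groups of 4, a library was singled out when its gap to the nearest other took up so much of the group's range as to pass Dixon's 95% criterion. This was checked in 76 groups, of which chance singles out about 1 in 20, and 5 were found. Cfap36 in labelled knockout 3 was at 354 CPM, against 525 to 538 in the other labelled knockouts. Cfap58 in labelled knockout 3 was at 118 CPM, against 167 to 175 in the other labelled knockouts. The round spermatid score of labelled knockout 3 was -0.64, against 0.24 to 0.37 in the other labelled knockouts. Cfap126 in wild type 2 was at 117 CPM, against 129 to 130 in the other wild types. Cfap99 in wild type 1 was at 46.4 CPM, against 37.8 to 38.5 in the other wild types.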

How the results depend on the processing

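The number of genes called over the whole table was 4 in the reported fit, 26 with no low count filter, 46 with DESeq2, 31 with the elongating and 13 with the round spermatid score in the model, and from 3 to 35 with 1 library left out, with 33 without labelled knockout 1, 35 without labelled knockout 3 and 33 without labelled knockout 4. The number of Cfap genes called was 0 under each alternative except without labelled knockout 3, where it was 1 (leave-one-out range 0 to 1). The number above 0 was 24 to 31 with 1 library left out, lowest without labelled knockout 4, and 28 to 31 otherwise. The median log2 fold change of the Cfap genes was 0.05 to 0.21 with 1 library left out, and 0.05 without labelled knockout 4, 0.06 without labelled knockout 1 and 0.21 without labelled knockout 3. Cfap61 kept its direction in all alternatives, from 0.35 to 0.57 with 1 library left out, and Ak9 did too, from -0.69 to -0.24. Whether replicate numbers pair the libraries is not settled. Same-numbered deviations correlated at 0.30, 0.14, -0.29 and 0.18 for numbers 1 to 4, and differently numbered libraries of the 2 groups were not compared. With the replicate block, 4 genes and 0 Cfap genes were called, and Cfap61 had a log2 fold change of 0.44 (adjusted p = 1.00).

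Other named genes kept their sign in 407 of 432 values and changed it in 25, in 11 genes, none of them called. Cfap100 was at -0.0039 with limma-voom, -0.020 with the elongating and -0.054 with the round spermatid score. With the round score Cfap299 was at -0.030 and Cfap97d1 at -0.038. With 1 library left out, Cfap100 ranged from -0.093 to 0.19, Cfap299 from -0.029 to 0.21, Cfap300 from -0.029 to 0.11, Cfap43 from -0.019 to 0.088, Cfap46 from -0.10 to 0.0035, Cfap47 from -0.24 to 0.052, Cfap65 from -0.053 to 0.085, Cfap74 from -0.037 to 0.091, Cfap77 from -0.042 to 0.28, Cfap97d1 from -0.0032 to 0.34 and Cfap97d2 from -0.089 to 0.30. The causes were not tested. Ranking by coding length was added after the data were examined.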
